A study of Mus musculus with 2 samples.

Results

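Dazl, Ddx4, Mael, Sycp1, Sycp3, Stk31, Piwil2, Stag3, Tdrd1 and Tex101 are genes of the germline whose promoters are known targets of DNA methylation in somatic cells. They were taken by symbol from the deposited tables, and all 10 were among the 23889 symbols listed there. The samples were E14 cells, a line of mouse embryonic stem cells (mESCs) whose source strain the labels give as 19/Ola, that was grown without feeders on gelatin with serum and LIF. There were 2 libraries, the control shRNA library (genotype label Normal) and the USP21 shRNA library (genotype label USP21 knockdown), both taken 3 days into the knockdown. The labels say that cells were transfected and do not say which USP21 shRNA was used, whether transfected cells were selected, or how many cultures were pooled. USP21 is a deubiquitinase, and the study asked what its loss does to the self-renewal of mESCs. Values are FPKM (fragments divided by transcript length and by the mapped total). With 1 library per group there are no replicates, so no difference given here could be tested against replicate error.

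Germline genes of this kind carry CpG-rich promoters. In the embryo they are methylated around implantation and then stay off in the body's tissues, while germ cells lose the methylation and switch the genes on. In mESCs a non-canonical Polycomb complex, PRC1.6, is also known to hold many of them down. It is brought to DNA by the partners MGA and MAX, which recognise the E-box CACGTG, and by E2F6 with its DP partner, which recognises sites with the core TCCCGC. The encoded proteins fall into 4 groups. Dazl and Ddx4 (the Vasa helicase) are RNA-binding proteins of germ cells. Mael (Maelstrom), Piwil2 (Mili), Tdrd1 and Stk31, which carries a Tudor domain, belong to the granules in which piRNAs, small RNAs against transposons, are made. Sycp1 and Sycp3 are parts of the synaptonemal complex, which holds paired chromosomes together in meiosis, and Stag3 is a subunit of meiotic cohesin. Tex101 is a surface protein of germ cells that sperm need for fertilization.

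Promoter sequences were taken from RefSeq by symbol for GRCm38.p6, from 250 bases before a start site to 50 bases after it, and 9 of the 10 genes had at least 1 such window. Piwil2 had none. Stk31 had 2 windows and Tdrd1 had 3, which made 12 windows in all. The stretches of 4 genes are printed because they carry the features that the genes share, or lack them in the case of Dazl. Capitals mark CACGTG and TCCCGC on either strand, so that TCCCGC on the other strand reads GCGGGA. Each stretch starts 250 bases before the start site and was ended so that at most 30 of its bases are exonic in GENCODE M21. Mael is shown for chr1:166238718-166238994, minus strand, Sycp1 for chr3:102936071-102936350, minus strand, Sycp3 for chr10:88459337-88459598, plus strand, and Dazl for chr17:50293607-50293870, minus strand.
Mael: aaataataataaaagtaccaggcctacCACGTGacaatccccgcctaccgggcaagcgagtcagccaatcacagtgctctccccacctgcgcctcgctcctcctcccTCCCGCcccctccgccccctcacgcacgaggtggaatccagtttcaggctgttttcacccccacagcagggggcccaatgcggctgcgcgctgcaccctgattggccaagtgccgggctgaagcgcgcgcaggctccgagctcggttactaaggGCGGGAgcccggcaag
Sycp1: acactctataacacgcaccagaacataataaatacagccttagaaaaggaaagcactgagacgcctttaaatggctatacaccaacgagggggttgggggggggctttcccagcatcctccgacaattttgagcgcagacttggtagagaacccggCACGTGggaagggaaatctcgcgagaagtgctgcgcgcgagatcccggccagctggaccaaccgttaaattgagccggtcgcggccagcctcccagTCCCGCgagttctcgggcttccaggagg
Sycp3: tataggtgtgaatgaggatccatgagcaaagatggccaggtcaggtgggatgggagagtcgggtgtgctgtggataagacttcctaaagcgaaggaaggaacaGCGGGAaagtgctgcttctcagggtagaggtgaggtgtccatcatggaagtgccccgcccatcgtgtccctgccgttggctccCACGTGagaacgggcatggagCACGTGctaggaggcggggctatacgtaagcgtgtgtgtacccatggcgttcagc
Dazl: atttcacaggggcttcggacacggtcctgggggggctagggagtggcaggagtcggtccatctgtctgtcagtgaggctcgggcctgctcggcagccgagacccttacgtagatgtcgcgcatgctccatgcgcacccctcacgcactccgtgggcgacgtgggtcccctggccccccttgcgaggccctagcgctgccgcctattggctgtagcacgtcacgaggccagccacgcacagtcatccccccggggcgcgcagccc

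The E-box CACGTG was found in the windows of 7 of the 9 genes, namely Ddx4, Mael, Stag3, Stk31, Sycp1, Sycp3 and Tdrd1. That is 9 of 12 windows (75%), against 8.07% of the 20209 windows of the same length that belong to genes in the tables. Since the E-box holds a CpG, CpG-rich windows are the closer background, and among the 9813 windows with a CpG observed/expected ratio of at least 0.6 the share was 11.4%. The paired windows of Stk31 overlap and hold the same E-box, and so do the first 2 windows of Tdrd1, so these matches are not independent. TCCCGC was found in 5 genes (5 of 12 windows, 41.7%), against 26.1% of all windows and 43.8% of the CpG-rich windows. All 5 of these genes, Ddx4, Mael, Stag3, Sycp1 and Sycp3, held both motifs in the same window, against 2.71% of all windows and 4.87% of the CpG-rich ones. The windows of Dazl and Tex101 held neither sequence. Neither motif contains the other, and the letters alone do not show that a factor was bound.

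The matches lay at different distances from the start site. The first base of the E-box lay 223 bases before the start of Mael, 170 before that of Stag3, 94 before that of Sycp1 and 29 before that of Ddx4. Sycp3 had 2 E-boxes, 64 and 43 bases before its start. TCCCGC lay across the start of Stag3 and began 2 bases after the start of Sycp1, while in Ddx4, Mael and Sycp3 it lay 136, 143 and 147 bases upstream. Mael had another one 11 bases downstream. In the other germline lists used here, the E-box was present in 7 of 21 windows of piRNA and transposon defence genes (33.3%), in 6 of 20 windows of meiotic axis and recombination genes (30%) and in 0 of 7 windows of germ cell and meiotic entry factors. In the same order, TCCCGC was in 3, 10 and 3 windows (14.3%, 50% and 42.9%). Both motifs shared a window in 1, 5 and 0 of them (4.76%, 25% and 0%), so the pair was not particular to the 10 genes.

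**Figure D1:**
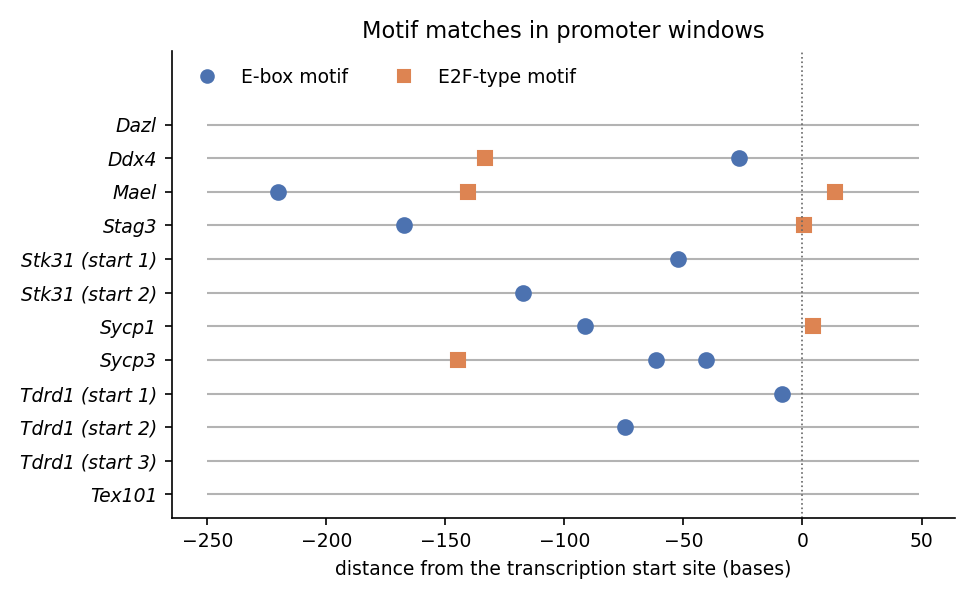
Motif matches in the promoter windows of 9 germline genes. The x axis is the distance from the RefSeq start site in bases, each grey line is 1 window, circles are E-box matches and squares are matches of the E2F-type core, on either strand. Of the 12 windows 9 hold an E-box, and the windows of Dazl and Tex101 hold no match.

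All 9 genes had a CpG-rich window. Of the 12 windows 11 were at a CpG observed/expected ratio of 0.6 or more, as were 48.6% of all windows, and the exception was the third window of Tdrd1, with 3 CpGs and a ratio of 0.216. Stag3 had the highest ratio, 1.06 with 30 CpGs in 300 bases, and Ddx4 had the most CpGs, 38 at a ratio of 0.978. Dazl had 28 CpGs and a ratio of 0.795, and Mael 24 and 0.78. The median window of the germline genes held 24.5 CpGs, and the median of all windows 13. Methylation itself was not measured in these libraries.

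**Figure D2:**
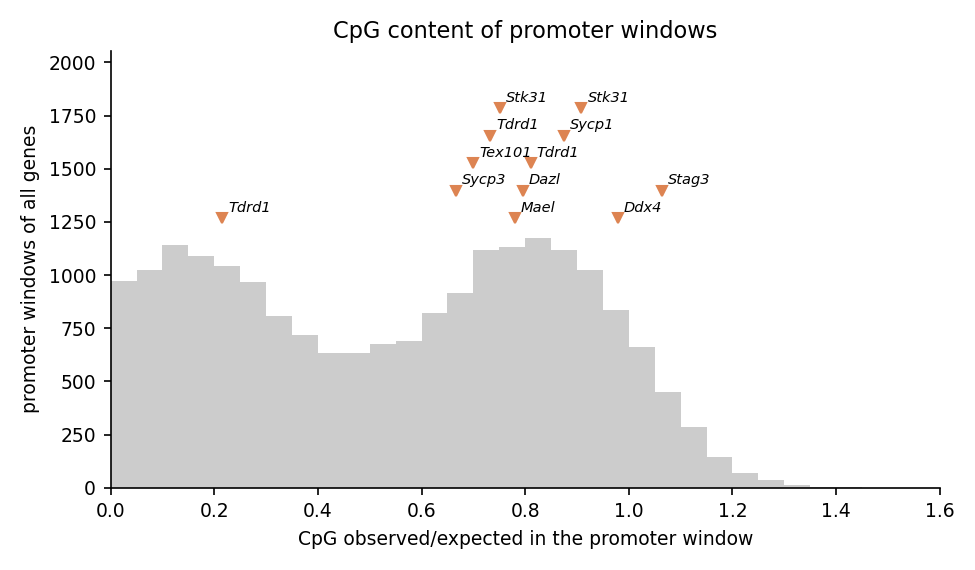
CpG observed/expected ratio of promoter windows. The grey histogram counts the windows of all genes in the tables, and each triangle is 1 window of a germline gene, set at its ratio on the x axis and at an arbitrary height. Of the 12 triangles 11 lie at 0.6 or above.

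The 10 genes were not silent as a group in E14 cells. FPKM was at least 1 in both libraries for 8 of them and at least 10 in both for 6, namely Mael, Stag3, Ddx4, Dazl, Piwil2 and Sycp3. Their median FPKM, over all 10 with no filter, was 10.6 in control cells and 12.4 after knockdown. Over all 23889 symbols the medians were 0.79 and 0.80. Over the 11927 genes that reached an FPKM of 1 in either library they were 11.8 and 12.1. Tdrd1 and Tex101 were the exceptions, below an FPKM of 1 in both libraries. The RNA levels thus went against a label of silenced genes, and they are called germline genes here. In bulk RNA, fewer cells expressing a gene and less RNA per cell cannot be told apart.

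Levels spread 50.2-fold in the control library, from Tdrd1 to Mael, and 21.2-fold in the USP21 shRNA library, from Tex101 to Mael. In the control library the order was Mael, Stag3, Ddx4, Dazl, Piwil2, Sycp3, Stk31, Sycp1, Tex101 and Tdrd1. In the USP21 shRNA library Mael stayed first, followed by Ddx4, Piwil2, Sycp3, Stag3 and Dazl, and Stk31 and Sycp1 kept their places. Without replicates neighbours in this order cannot be separated. Of all symbols in the control library 89.9% were lower than Mael, 76.2% lower than Dazl and 49.9% lower than Tdrd1.

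**Figure D3:**
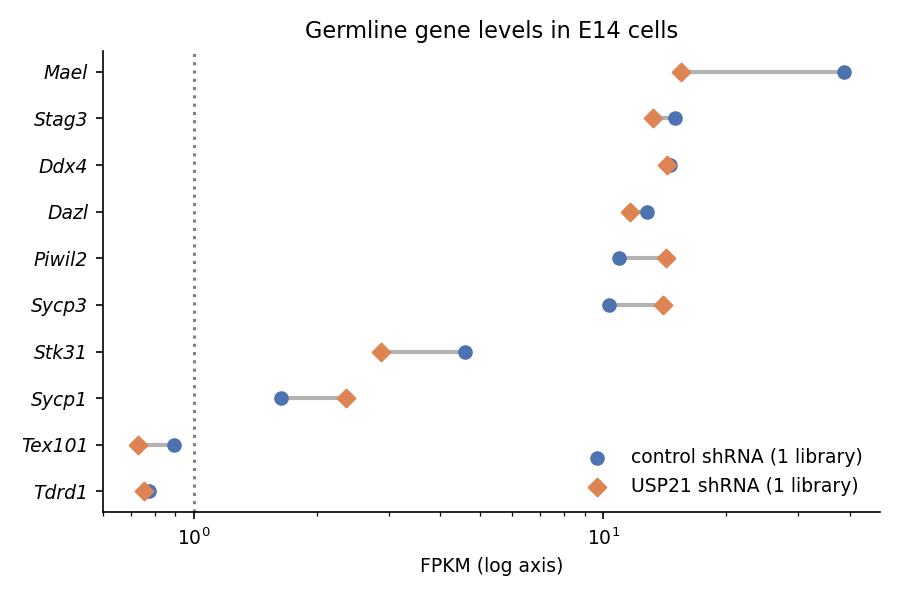
FPKM of the 10 germline genes on a log axis, with circles for the control shRNA library and diamonds for the USP21 shRNA library (1 library each, no error bars). The dotted line is an FPKM of 1. Mael has the longest bar, from 38.9 to 15.5, and Tdrd1 and Tex101 lie below 1 in both libraries.

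Other cell types were checked by their markers. All 9 markers of embryonic stem cells were present, and Pou5f1 (Oct4), the central pluripotency factor, was at an FPKM of 868 in control cells and 752 after knockdown. Nanog, another core pluripotency factor, had 467 and 258. Of 7 spermatid genes 5, among them the protamines Prm1 and Prm2, were at 0 in both libraries, and the summed FPKM of the 7 was 0.0306 and 0.178. The 9 markers of somatic gonad cells summed to 2.79 and 3.65, most of it Star at 1.51 and 2.00, the only one past an FPKM of 1. Of the 6 gonad markers past an FPKM of 0.1, 3 were higher after knockdown and 3 lower. Wt1 was at 0.18 and 0.867, and Dhh at 0.423 and 0.095. Cyp17a1 was at 0 in both. The 8 fibroblast markers summed to 20.7 and 10.3, most of it Thy1 at 17.3 and 5.29. Of the 4 past an FPKM of 0.1, Thy1 and Col1a1 (0.801 and 0.56) were lower after knockdown, and Pdgfra (2.48 and 4.22) and Col1a2 (0.113 and 0.167) were higher. Lum was at 0 in both. The 7 primitive endoderm markers summed to 80.6 and 75.9. Usp21, the targeted gene, was at 26.2 in control cells and 3.49 in the cells labelled USP21 knockdown.

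The knockdown library differed little from the control library at most of the germline genes. The difference is given as log2((FPKM USP21 shRNA + 0.1)/(FPKM control shRNA + 0.1)), a scale on which differences of low genes come out too small. The ratio of FPKM values lay within 1.5-fold for 8 of the 10, and the exceptions, Mael and Stk31, were lower with the USP21 shRNA. The share of all genes within 1.5-fold was not counted, so this count does not set the 10 genes apart from others. Among the 8 genes that reached an FPKM of 1, 1 was 2-fold lower (Mael) and 0 were 2-fold higher, where the background over 11927 genes was 2.03% lower and 2.30% higher. At an FPKM of at least 0.1, which all 10 passed, the counts were again 1 and 0, against 3.00% and 3.40% of 15316 genes. The median log2 ratio of the 10 genes was -0.084, beside 0.0046 over those 15316 genes. Of the 10 genes 3 were higher and 7 lower, but with both libraries rescaled to the same sum of FPKM, which adds 0.18 to the log2 ratio, 6 were higher and 4 lower. The shares of all genes higher and lower by any amount were not counted.

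Mael, which piRNA-guided silencing of transposons needs, had the largest difference of the 10. Its FPKM was 38.9 in control cells and 15.5 after knockdown, a log2 ratio of -1.32. It was the highest of the 10 in both libraries and 2.51-fold lower with the USP21 shRNA. Among the 11927 genes reaching an FPKM of 1, 100 had a log2 ratio as low as that of Mael or lower. To show the scatter at a given level, each gene was set beside the 500 genes nearest in mean log2 level, and for Mael the 10th to 90th percentile of these ran from -0.37 to 0.37, with 5 of them 2-fold lower. Mael lay outside this range, which by construction leaves out 10% of nearby genes at each end. It held 35.2% of the summed FPKM of the 10 genes in the control library and 17.3% in the other. That sum was 110.3 in control cells and 89.5 after knockdown, and without Mael it was 71.4 and 74.0.

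The other piRNA pathway genes of the 10 differed less than Mael and in both directions. Stk31 was at an FPKM of 4.60 in control cells and 2.86 after knockdown, a log2 ratio of -0.67, just outside the range of its 500 nearest genes (-0.50 to 0.66). Piwil2, the PIWI protein that binds piRNAs in fetal and adult male germ cells, had 10.9 and 14.2, a log2 ratio of 0.38 within the range of -0.38 to 0.42. Tdrd1, a Tudor protein that binds PIWI proteins, had 0.774 and 0.756, so it was low in both libraries and nearly the same. Its log2 ratio of -0.031 became 0.13 with equal sums. Mael and Stk31 were lower and Piwil2 was higher under every scaling tried, and the sign of Tdrd1 depended on the scaling.

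Dazl, which controls the translation of germ cell mRNAs, was at an FPKM of 12.8 in control cells and 11.6 after knockdown. Ddx4 had 14.6 and 14.4. Their log2 ratios of -0.14 and -0.020 lay well inside the ranges of their nearest genes and changed sign with equal sums, to 0.037 and 0.15. These widely used germ cell markers were thus above an FPKM of 10 in both libraries, and the direction of their small differences depended on the scaling.

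Of the meiotic chromosome genes among the 10, Sycp1 and Sycp3 had higher values in the USP21 shRNA library and Stag3 a slightly lower one. Of the other synaptonemal complex genes, Sycp2 was also higher, at a log2 ratio of 0.32, with an FPKM below 1 in both libraries. Syce1 (-0.22), Syce2 (-0.63), Syce3 (-0.31) and Tex12 (-0.078) lay the other way, and Tex12 came to 0.085 with equal sums. The cohesin subunit Smc1b was at 0.31, and Rec8, another one, at -0.25. Sycp3, of the lateral element, was at an FPKM of 10.3 in control cells and 13.97 after knockdown. Its log2 ratio of 0.43 was just above the range of its nearest genes (-0.37 to 0.41), and inside it when the 1000 nearest genes were taken. The exons of Sycp3 overlap those of Chpt1 on the opposite strand over 660 bases, and 46.5% of its 31-base words occur there. Whether strand was used in counting is not stated, so the fragments of Sycp3 and Chpt1, which had 13.7 and 12.8, may not be told apart. Sycp1, which forms the filaments between the paired axes, had 1.63 and 2.36, a log2 ratio of 0.50 inside its range of -0.56 to 0.67. Of the 31-base words of Sycp1 15.6% occur in transcripts of other genes (119 when a gene is counted once per strand). For the rest of the germline genes the share was at most 1.31%. Stag3 had 14.9 and 13.2, a log2 ratio of -0.18, which came to -0.0032 with equal sums. Tex101 had 0.893 and 0.729, a log2 ratio of -0.26, and like Tdrd1 it lies where the range of nearby genes was wide (-0.78 to 0.86).

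**Figure D4:**
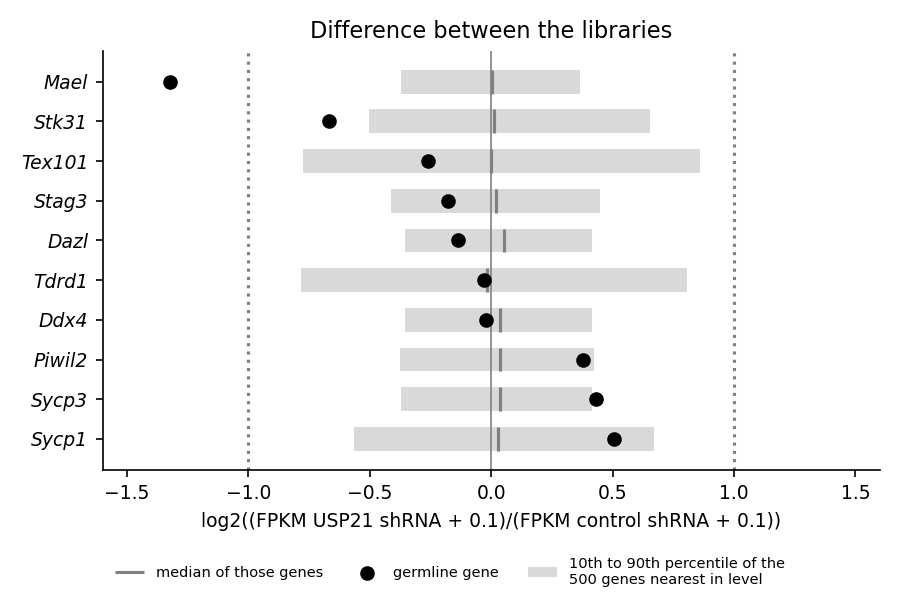
Log2 ratio of the 10 germline genes (points, 1 library per group) beside the scatter of genes at the same level. Grey bars span the 10th to 90th percentile of the log2 ratio of the 500 genes nearest in level, ticks mark their median, and dotted lines mark 2-fold. Mael, Stk31 and Sycp3 lie outside their bars, and Dazl, Ddx4 and Tdrd1, close to 0, change sign when the libraries are rescaled to equal sums. Each bar leaves out 10% of nearby genes at each end by construction.

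Transcript length differed between the genes, from 1169 bases for Sycp3 to 5187 for Tdrd1, and the log2 ratio followed length across genes (Spearman rho 0.32, a description). The correlation was taken over the 11378 genes with a transcript length and an FPKM of at least 1 in a library. With the median of the 500 genes nearest in length subtracted, Mael was at -1.23, Stk31 at -0.67, Piwil2 at 0.32, Sycp1 at 0.49 and Sycp3 at 0.60. Only Ddx4 of the 10 changed sign under this correction, to 0.038.

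Other genes of the germline were examined from 3 lists. As background, 2.03% of the 11927 genes reaching an FPKM of 1 were 2-fold lower and 2.30% were 2-fold higher. The median log2 ratio over the 15316 genes past an FPKM of 0.1 was 0.0046. The share of all genes lower by any amount was not counted, so counts of lower genes do not set a list apart. Of 16 genes of piRNA and transposon defence 12 had an FPKM of at least 1 in a library, and 0 were 2-fold higher or lower. Their median log2 ratio was -0.24 over the 15 past an FPKM of 0.1, and 10 of these were lower, or 8 with equal sums. Tex19.1, which restrains retrotransposons, was the highest, at 46.8 and 65.5, and its log2 ratio of 0.48 was the largest among those 12. Tdrd12, another Tudor protein of this pathway, was at 6.30 and 3.26 and had the lowest, -0.93. Of the 21 meiotic axis and recombination genes 14 reached an FPKM of 1, and 13 of the 19 past 0.1 were lower (11 with equal sums), with a median of -0.22. Syce2, of the central element of the synaptonemal complex, was the highest at 27.3 and 17.6. Tex11, which acts in meiotic recombination, had the largest log2 ratio among the 14, 0.46, at 7.57 and 10.5. Hormad1, a protein of the meiotic chromosome axis, was at 7.47 and 3.56 and was the only one 2-fold lower, with a log2 ratio of -1.05 that came to -0.88 with equal sums.

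Of the 14 germ cell and meiotic entry factors 13 were found and 9 reached an FPKM of 1. Stra8, the retinoic acid-induced gene that starts meiosis, was at 5.30 in control cells and 14.3 after knockdown, a log2 ratio of 1.41 and the only 2-fold difference. Prdm14, which directs germ cell fate and also acts in naive mESCs, was at 12.6 and 6.46, and its log2 ratio of -0.95 was the smallest among the 9. Kit, the receptor of stem cell factor, was the highest of the list at 19.2 and 21.6. Stra8 and Mael thus differed in opposite directions.

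Repressors of germline genes were looked at through 2 lists of 15 genes each. The lists are not a full set of repressors, and the second also holds genes that remove methylation. Most of the listed genes lay within 2-fold, as did most of the 11927 genes reaching an FPKM of 1 (2.03% were 2-fold lower and 2.30% higher). All 15 subunits and partners of PRC1.6 had an FPKM of at least 1, with a median log2 ratio of -0.0073. Cbx1, a chromodomain protein, was the highest, at 198.4 and 209.9. Of the DNA-binding partners, Mga, E2f6 and Max had higher values in the USP21 shRNA library. Mga was at 11.2 and 17.4 (log2 ratio 0.63, the largest of the list), E2f6 at 12.1 and 18.1 (0.58) and Max at 77.5 and 81.0 (0.064). After the length correction Mga came to 0.34 and E2f6 to 0.64, so Mga was then no longer the largest. The DP partner Tfdp1 was at 104.4 and 94.4, a log2 ratio of -0.14 that came to 0.031 with equal sums. Pcgf6, the subunit that defines this complex, was at 20.9 and 26.1, and L3mbtl2 was at 35.1 and 32.6, a difference that changes sign with equal sums. Yaf2, a relative of the adaptor Rybp, was at 10.7 and 4.64 and was the only one 2-fold lower (log2 ratio -1.18).

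Among 15 genes of DNA methylation, its removal and H3K9 methylation, 1 was 2-fold higher and 0 were 2-fold lower, and the median log2 ratio was 0.039. Dnmt3l, the cofactor of the de novo methyltransferases, was at 62.1 in control cells and 201.0 after knockdown, a log2 ratio of 1.69. Dnmt3a, a de novo methyltransferase, was at 19.4 and 36.5 (0.91), with a log2 ratio of 1.09 with equal sums and 0.66 after the length correction, while its relative Dnmt3b was at 24.5 and 23.9. Dnmt1, which copies methylation at replication, was at 76.5 and 80.9, and its partner Uhrf1 at 160.6 and 165.0. Setdb1, an H3K9 methyltransferase, was at 21.4 and 20.4, and Ehmt2 (G9a), another one, was the lowest of the list by log2 ratio, -0.26, at 35.1 and 29.4. Trim28, the corepressor that recruits Setdb1, was the highest, at 682 and 591. The log2 ratios of Dnmt1, Dnmt3b and Setdb1 changed sign under another scaling or the length correction.

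**Figure D5:**
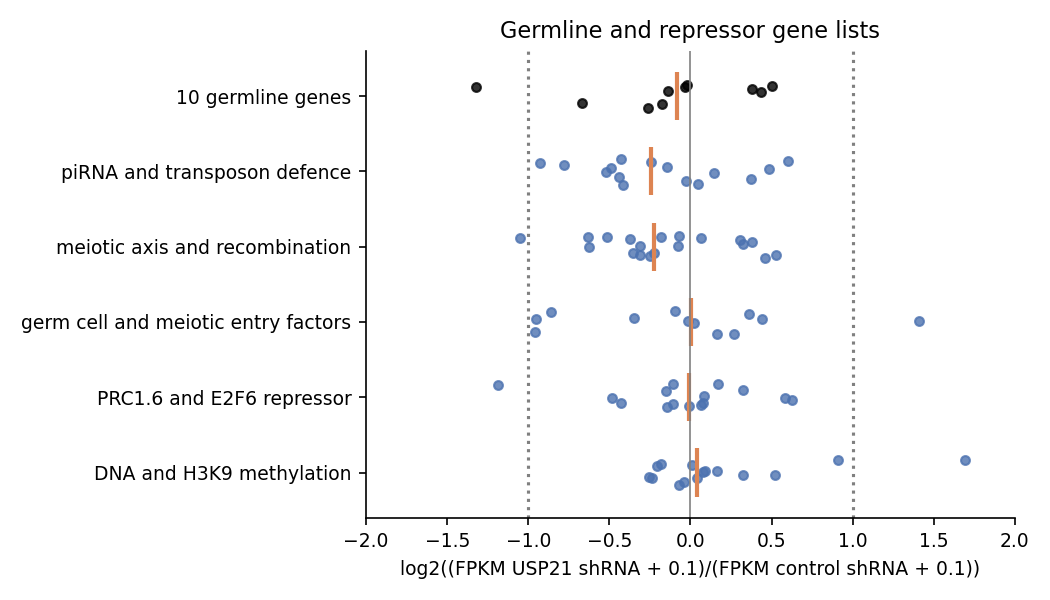
Log2 ratio of each gene with FPKM of at least 0.1 in a library, for the 10 germline genes (black) and 5 other lists (blue), 1 library per group. Orange ticks are list medians and dotted lines mark 2-fold. Most points lie within 2-fold, and Mael, Hormad1 and Yaf2 on the left and Stra8 and Dnmt3l on the right lie beyond it, of which Hormad1 comes inside with equal sums.

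Genes across the genome that share the promoter motifs were set beside the germline genes. Of 1107 genes with an E-box in a window that reached an FPKM of 1, 14 (1.26%) were 2-fold lower and 21 (1.90%) 2-fold higher, with a median log2 ratio of 0.014. Among the 435 genes with both motifs the counts were 5 and 6 and the median was 0.020. The 9000 genes with a window had a median of 0.0074, with 1.79% lower and 1.98% higher.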

How the data were processed

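Total RNA of 2 libraries was sequenced, 1 per group. The submitters' processing notes name CASAVA 1.8.2, TopHat2 2.0.14, Cufflinks 2.2.1 and the build mm9, with no roles, and the paper's methods do not describe this sequencing. The authors deposited FPKM values, 1 per symbol and library, with no counts. Their sums were 613617 (control shRNA) and 543206 (USP21 shRNA). Absolute depth is unknown, so no counting interval was formed. For 1439 genes with values above 0 and below an FPKM of 0.1 in both libraries, the ratio between the libraries was taken. The median log2 ratio of USP21 shRNA over control around its most frequent value was 0.31. This was read as a relative depth of 1.24 for control over USP21 shRNA. The 10 genes lay above that range.

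Log2 ratios used a pseudocount of 0.1, and 2-fold counts used log2 ratios of at least 1 or at most -1. The genes named outside the 10 are the highest in control FPKM and the largest and smallest log2 ratio (FPKM of at least 1) of each germline and repressor list, named repressors, Usp21, Pou5f1 and Nanog. Prm1, Prm2, Cyp17a1, Star, Wt1, Dhh, Thy1, Lum, Col1a1, Col1a2, Pdgfra, Sycp2, Syce1, Syce3, Tex12, Smc1b, Rec8, Tfdp1 and Chpt1 were named after their values were seen. The members and lists were chosen with earlier results of these data known. Alternatives were other pseudocounts, equal sums (TPM), median centring, a length correction, other FPKM floors and 200 or 1000 nearest genes. Transcript lengths (1 per gene, longest coding sequence), overlaps and shared 31-base words came from GENCODE M21 (GRCm38). 95.4% of genes with FPKM of at least 1 had a length. Promoters came from RefSeq (GRCm38.p6). No coordinates were taken from the tables. The log2 ratio and the length correction were tested on simulated data, and the other steps were not. Python 3.11.15, numpy 2.4.6, pandas 2.3.3 and matplotlib 3.10.9 were used.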

Additional observations from a re-analysis of the deposited data

How the results depend on the processing

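With 1 library per group no result has a test, and the depth limits are unknown. The count of germline genes 2-fold lower stayed at 1 and that of genes 2-fold higher at 0 under pseudocounts of 1 and 0.01, equal sums, median centring, the length correction and FPKM floors of 0.1 and 5. The median log2 ratio of the 10 genes, -0.084, became 0.084 with equal sums. Under the other settings it lay between -0.089 and -0.031, the last without Mael, a setting chosen after seeing the data. Equal sums changed the sign of 3 of the 10 log2 ratios and the length correction that of 1, while the other 3 settings changed 0. The log2 ratio of Mael ranged from -1.33 to -1.15. The number of genes outside the range of their nearest genes was 3 with 200 and 500 neighbours and 2 with 1000. By construction such a range leaves out 10% of nearby genes at each end, so a few of any 10 genes fall outside it. No paired analysis was possible because each group has 1 library.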
